A study of Homo sapiens with 24 samples.

Results

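The genes described here are 10 interferon effectors: SAMD9, SAMD9L, XAF1, EPSTI1, CMPK2, RSAD2, PLSCR1, SP100, SP110 and ISG20. They were found by symbol in a deposited table of 25541 entries, and all 10 passed the minimum for testing, among 20162 tested entries of the 25516 with a unique name. Total RNA had been sequenced from T47D-co and T47D-Y, human luminal breast cancer lines that the labels call variants of T47D, T47D-co with and T47D-Y without progesterone receptor (PR). The cells received IFN-alpha, written IFN here, at 20 IU per ml or water alone for 18 hours, followed for 6 hours by R5020, a synthetic progestin, at 10 nM or by ethanol (EtOH) as its vehicle. In each line 3 libraries received R5020 and IFN, 3 EtOH and IFN, 3 R5020 and water, and 3 EtOH and water, described as biological triplicates, which makes 24 libraries in 8 groups. Each line is a single cell line, so PR and every other difference between the 2 lines cannot be told apart.

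Type I interferon binds a cell surface receptor, and signalling from it leads to the transcription complex ISGF3. This complex binds interferon-stimulated response elements in promoters and raises genes that restrict viruses. The genes described here act late in that response: SAMD9 and SAMD9L restrain translation and growth, RSAD2 and CMPK2 alter nucleotides, PLSCR1 and EPSTI1 have been tied to antiviral defence, SP100 and SP110 belong to nuclear bodies, XAF1 favours apoptosis and ISG20 degrades RNA. PR bound by a progestin is itself a transcription factor.

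The letters of interferon elements near the starts of these genes are shown first, because the genes turned out to differ in their answer to IFN. RefSeq promoter windows of 300 bases (250 before the start and 50 from it; build GRCh38.p14) were found for all 10 genes, 17 windows in all. The following stretches of 60 bases run 5′ to 3′ on the strand of the gene, and capitals mark matches, on either strand, of the core of the interferon-stimulated response element (GAAA, any 2 bases, GAAA), of the looser AAANNGAAA or of GAAANGAAA. The looser and the shorter form were added after the sequences had been seen. Any match of the core is also a match of AAANNGAAA. Only matches that lie whole within a printed stretch are in capitals.
SAMD9, chr7:93118081-93118140, minus strand: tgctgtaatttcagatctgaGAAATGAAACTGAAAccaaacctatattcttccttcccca
SAMD9L, chr7:93148398-93148457, minus strand: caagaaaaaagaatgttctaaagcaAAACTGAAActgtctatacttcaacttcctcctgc
XAF1, chr17:6755986-6756045, plus strand: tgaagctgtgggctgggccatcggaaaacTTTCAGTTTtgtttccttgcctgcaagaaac
EPSTI1, chr13:42992257-42992316, minus strand: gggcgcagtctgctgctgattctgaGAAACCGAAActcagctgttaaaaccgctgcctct
CMPK2, chr2:6865820-6865879, minus strand: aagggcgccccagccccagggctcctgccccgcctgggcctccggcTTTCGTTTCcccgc
RSAD2, chr2:6877607-6877666, plus strand: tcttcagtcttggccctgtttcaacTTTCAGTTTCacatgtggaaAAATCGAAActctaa
PLSCR1, chr3:146544652-146544711, minus strand: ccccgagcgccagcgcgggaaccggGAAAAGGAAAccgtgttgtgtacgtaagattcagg
SP110, chr2:230225700-230225759, minus strand: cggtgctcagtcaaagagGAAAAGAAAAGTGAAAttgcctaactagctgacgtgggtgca
ISG20, chr15:88638922-88638981, plus strand: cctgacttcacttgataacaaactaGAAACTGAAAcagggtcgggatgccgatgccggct

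The core occurred in windows of 5 of the 10 genes (SAMD9, EPSTI1, RSAD2, PLSCR1 and ISG20), and in those of 4.38% of 27305 genes in the same table. It lay at bases -50 to -41 in EPSTI1 and -69 to -60 in ISG20, the 2 genes whose answer to IFN is described last. SAMD9L and XAF1 lacked the core and held the looser form, at -47 to -39 and -31 to -23, XAF1 with a match of the shorter form across its start as well, and SP100 held none of the 3 forms in either of its windows. The looser form occurred in 12.6% and the shorter one in 3.87% of genes. The PR element (GNACA, any 3 bases, TGTNC) was found in 0 of the 10 (0.48% of genes). One RefSeq start of RSAD2 lies so close to one of CMPK2, on the opposite strand, that their windows share 165 bases. All letters were sought on both strands. A match is a description of letters only, and the lack of one says nothing beyond the window searched.

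**Figure D1:**
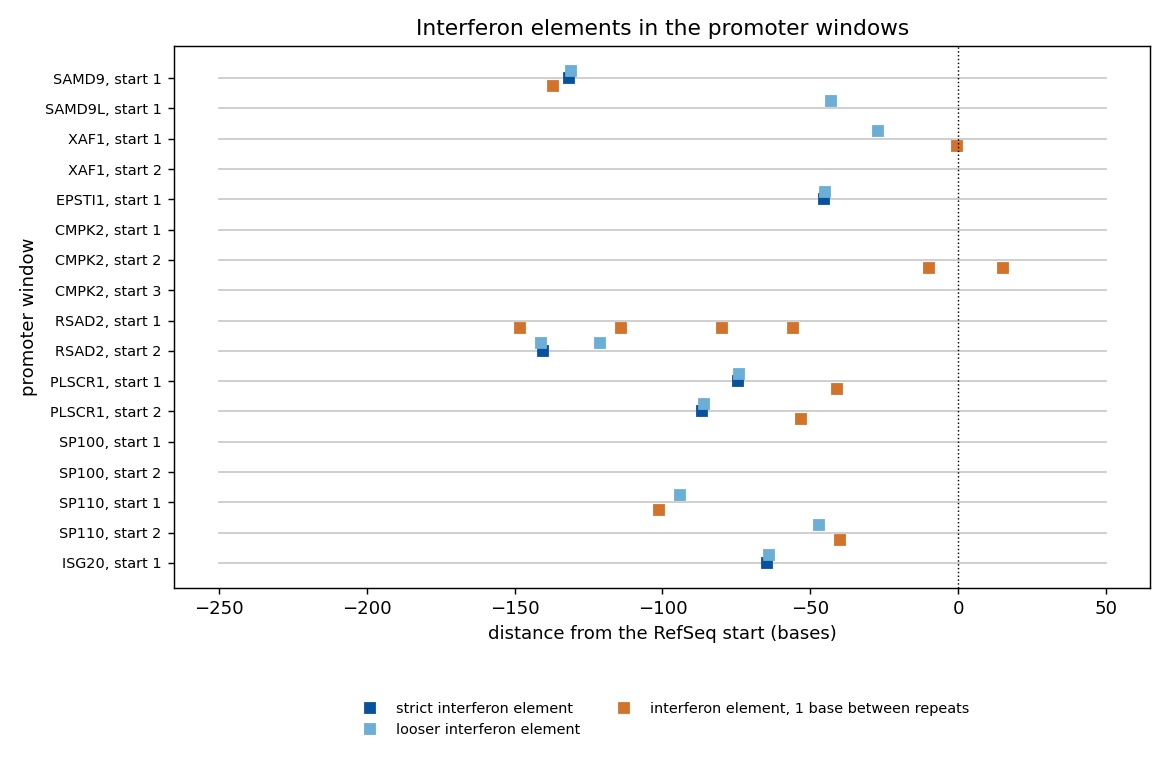
Positions of the interferon element letters (core in dark blue, looser form in light blue, shorter form in orange) in the 17 promoter windows of the 10 genes, as distance in bases from each RefSeq start. EPSTI1 and ISG20 carry the core at -50 to -41 and -69 to -60, while both SP100 windows are empty.

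Depth was 14,141,355 to 33,607,512 estimated fragments per library. Levels are given in scaled fragments (estimated fragments brought to 1 scale over the 24 libraries). They are not divided by gene length, so levels of different genes are not compared. In 4 libraries, all given water, mitochondrial transcripts made up 0.942 to 1.07% of fragments, against 3.17 to 4.74% in the other 20. They were replicate 2 of T47D-co given EtOH, replicates 1 and 2 of T47D-Y given R5020 and replicate 1 of T47D-Y given EtOH. PGR, the gene of PR, was read at 11807 to 27957 in T47D-co and 418 to 719 in T47D-Y. Of the 10 luminal markers 9 were found, and these were high in both lines except TFF1, at 11.8 or less. Of the 15 markers of other cell types 8 were found, and their sum was 494 to 709 in T47D-co and 366 to 471 in T47D-Y. Of these COL1A1 was at 285 to 473 in T47D-co and 154 to 233 in T47D-Y, the basal keratin KRT5 at 0 to 278 in T47D-co and 0 to 3.77 in T47D-Y, and the immune markers PTPRC and CD3E at 9.21 or less in both. Fewer cells of a kind and less RNA per cell cannot be told apart in such samples.

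**Figure D2:**
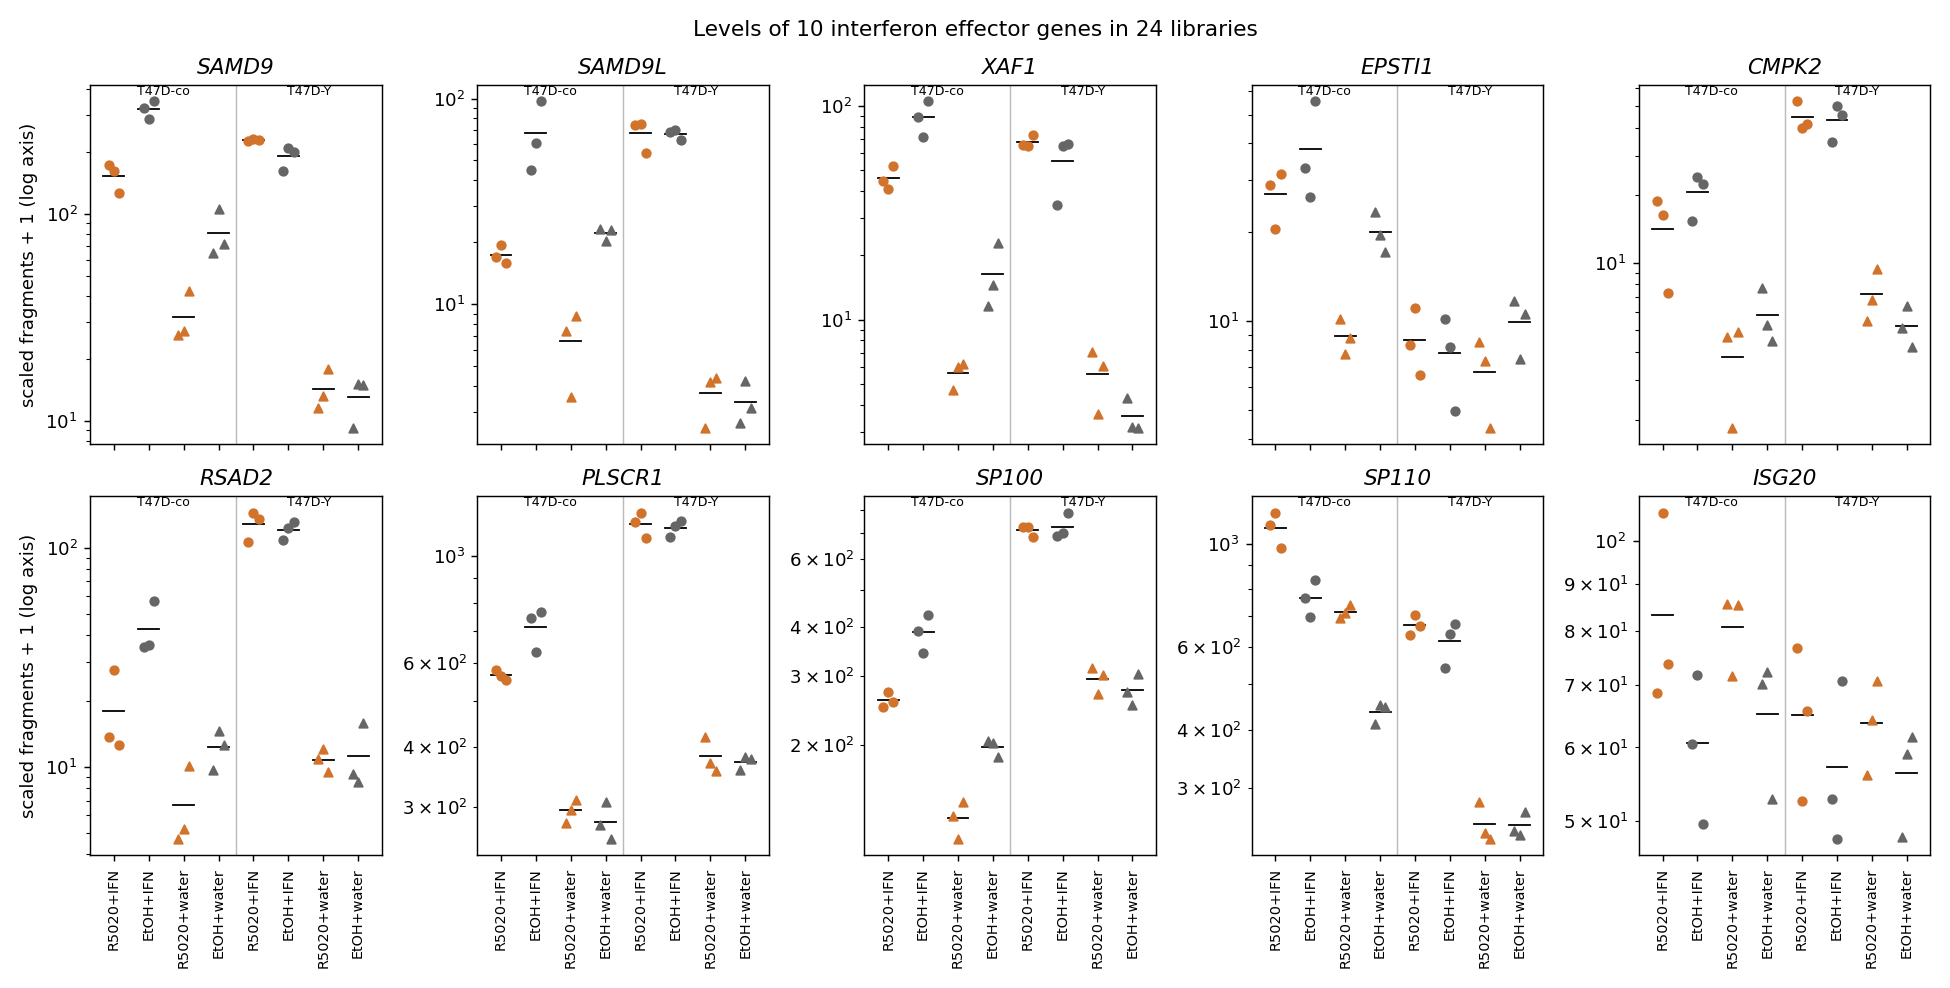
Scaled fragments plus 1 (log axis) of the 10 genes by group, with a point for every library and a line at the group mean; circles are IFN and triangles water, orange is R5020 and grey EtOH. SAMD9L means 16.4 in T47D-co given R5020 and IFN and 21.1 in T47D-co given EtOH and water, groups not compared by a test. ISG20 stays between 46.8 and 106 throughout.

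IFN raised 8 of the 10 genes in both lines among libraries given EtOH, and ISG20 was not called in any of the 4 IFN comparisons. EPSTI1 was called in 1 of them, T47D-co given R5020. Among libraries given R5020, 9 of the 10 rose in T47D-co and 8 in T47D-Y. In T47D-co 7.56% of all tested entries rose given R5020 and 0.57% given EtOH, and in T47D-Y 3.08% rose given R5020 and 2.51% given EtOH. The median log2 fold change of the 10 genes was 1.46 in T47D-co given R5020, 1.45 in T47D-co given EtOH, 2.13 in T47D-Y given R5020 and 2.33 in T47D-Y given EtOH. Over all tested entries the medians were 0.020, -0.0043, -0.0019 and -0.0010, in that order. Every fold change below was estimated with limma from 3 libraries per group after adding 1 to each value, which understates changes of low levels, and is given in log2 ± SE. Called means a two-sided p, adjusted by Benjamini-Hochberg over all entries, below 0.05. The labels do not say how the triplicates were grown apart, so p-values measure the spread between these libraries.

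SAMD9 and SAMD9L lie side by side on chromosome 7 (hg19, chr7:92728828-92747336 and chr7:92759367-92777682) and encode related cytosolic proteins. SAMD9 in T47D-co given EtOH had 325, 288 and 349.8 scaled fragments with IFN, against 63.5, 105 and 70.3 with water. Given R5020 it had 171, 161 and 126 with IFN, against 24.9, 26 and 41.6 with water. Every IFN library lay above every water library of its pair. SAMD9 in T47D-Y given EtOH had 159.9, 208 and 199 with IFN, against 8.26, 14.0 and 13.8 with water, and given R5020 it had 224, 230.2 and 228 with IFN, against 10.6, 12.1 and 16.8 with water. The water libraries of T47D-Y were the lowest of all, below those of T47D-co with either vehicle or R5020. SAMD9 changed with IFN, in log2, by 2.03 ± 0.22 (T47D-co given EtOH; limma, adjusted p = 8.62e-07) and 2.30 ± 0.22 (T47D-co given R5020; limma, adjusted p = 1.21e-07). In T47D-Y they were 3.89 ± 0.22 given EtOH (limma, adjusted p = 1.21e-12) and 4.03 ± 0.22 given R5020 (limma, adjusted p = 5.4e-13).

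SAMD9L in T47D-co given EtOH had 44.1, 59.9 and 96.0 scaled fragments with IFN, against 22.1, 19.3 and 21.9 with water, and given R5020 it had 15.9, 18.4 and 14.8 with IFN, against 6.44, 2.52 and 7.80 with water. All 3 T47D-co libraries given R5020 and IFN thus read lower for SAMD9L than any T47D-co library given neither. The nearest libraries, at 18.4 and 19.3, were close. These groups rest on 44 and 69 fragments in sum and were not compared by a test. SAMD9L was close to silent in T47D-Y without IFN. With EtOH in T47D-Y it had 67.9, 69.4 and 61.8 scaled fragments with IFN, against 1.65, 3.23 and 2.13 with water. Given R5020 it had 73.4, 74.2 and 53.5 with IFN, against 1.51, 3.16 and 3.36 with water. The water values rest on 7 fragments in sum given EtOH and 12 given R5020, so the ratio of IFN to water is 29.4 (95% interval 14.0 to 74.1, exact, from 183 against 7 fragments) and 24.5 (13.6 to 48.3). These intervals cover counting error only. The log2 fold changes with IFN were 1.55 ± 0.33 in T47D-co given EtOH (limma, adjusted p = 0.0145), 1.5 ± 0.33 given R5020 (limma, adjusted p = 0.00474), and 4.36 ± 0.33 and 4.24 ± 0.33 in T47D-Y given EtOH and R5020 (limma, adjusted p = 6.08e-10 and 1.08e-09). The call in T47D-co given EtOH was lost without EtOH water replicate 2, one of the 4 libraries of low mitochondrial share (1.48), without EtOH water replicate 3 (1.57) and without EtOH IFN replicate 3 (1.25). Given R5020 it was lost when the 2 groups were fitted alone (limma, adjusted p = 0.0575).

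XAF1 (hg19, chr17:6658765-6678966) encodes a partner of the apoptosis inhibitor XIAP. In T47D-co given EtOH it had 88.2, 70.8 and 104 scaled fragments with IFN, against 10.6, 13.6 and 21.9 with water, and given R5020 it had 43.8, 39.9 and 51.7 with IFN, against 3.68, 5.04 and 5.20 with water. T47D-Y given EtOH had 33.4, 64.0 and 65.8 with IFN, against 3.31, 2.15 and 2.13 with water, and given R5020 64.8, 64.2 and 72.5 with IFN, against 6.03, 2.64 and 5.05 with water. IFN libraries stood clear of water libraries in all 4 pairs. XAF1 thus changed with IFN, in log2, by 2.48 ± 0.30, 3.03 ± 0.30, 3.93 ± 0.30 and 3.66 ± 0.30 in T47D-co given EtOH, T47D-co given R5020, T47D-Y given EtOH and T47D-Y given R5020 (limma, adjusted p = 9.04e-06, 3.22e-07, 9.67e-10 and 4.03e-09). At 8 fragments in sum, the T47D-Y water level given EtOH is poorly fixed, and the ratio there was 21.1 (95% interval 10.4 to 49.7).

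RSAD2 (viperin) and CMPK2 are neighbours that the table places at 1 locus (hg19, chr2:6980700-7038370). CMPK2 phosphorylates CMP and UMP in mitochondria, and RSAD2 turns CTP into a nucleotide that stops viral polymerases. RSAD2 in T47D-co given EtOH had 34.2, 35.1 and 55.7 scaled fragments with IFN, against 8.66, 13.6 and 11.5 with water, and given R5020 12.6, 26.6 and 11.6 with IFN, against 3.68, 4.20 and 9.10 with water. In T47D-Y given EtOH it had 107, 121 and 130.4 scaled fragments with IFN, against 8.26, 7.53 and 14.9 with water, and given R5020 it had 105, 143 and 135 with IFN, against 9.80, 11.1 and 8.45 with water. The IFN libraries of T47D-co were all below those of T47D-Y, while the EtOH and water libraries of the 2 lines overlapped. Fold changes of RSAD2 in log2 were 1.78 ± 0.32 in T47D-co given EtOH (limma, adjusted p = 0.0024), 1.42 ± 0.32 given R5020 (limma, adjusted p = 0.00587), and 3.48 ± 0.32 and 3.57 ± 0.32 in T47D-Y given EtOH and R5020 (limma, adjusted p = 3.36e-08 and 2.04e-08). Without T47D-co R5020 IFN replicate 2, its highest library, RSAD2 moved by 1.06 in T47D-co given R5020 and was not called; fitted on the 2 groups alone it was not called either (limma, adjusted p = 0.0861).

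CMPK2 followed at lower depth. T47D-co given EtOH had 14.3, 23.1 and 21.3 scaled fragments with IFN, against 6.74, 4.28 and 3.46 with water, and given R5020 17.9, 15.3 and 6.34 with IFN, against 3.68, 0.840 and 3.90 with water. T47D-Y given EtOH had 33.4, 48.8 and 44.7 with IFN, against 4.13, 5.38 and 3.19 with water, and given R5020 51.4, 39.0 and 40.6 with IFN, against 4.52, 5.80 and 8.38 with water. No IFN library overlapped the water libraries of its pair. CMPK2 changed with IFN, in log2, by 1.83 ± 0.40 and 1.92 ± 0.40 in T47D-co given EtOH and R5020 (limma, adjusted p = 0.0171 and 0.00325) and 3.05 ± 0.40 and 2.65 ± 0.40 in T47D-Y (limma, adjusted p = 1.23e-05 and 9.04e-05). In T47D-co given EtOH the call was lost without EtOH water replicate 2 (1.78) or 3 (1.66) or EtOH IFN replicate 2 (1.71) or 3 (1.76), and in T47D-co it was lost given EtOH and given R5020 when the 2 groups were fitted alone (limma, adjusted p = 0.0567 and 0.0632). Without the 4 libraries of low mitochondrial share CMPK2 was not called in T47D-Y given R5020, at 2.24 (limma, adjusted p = 0.0639).

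PLSCR1, SP100 and SP110 were read deeply and rose less. PLSCR1 (hg19, chr3:146232966-146262651), a phospholipid scramblase that also enters the nucleus, had 741, 632 and 764 scaled fragments with IFN, against 274, 307 and 257 with water, in T47D-co given EtOH, and 578, 562 and 552 with IFN, against 278, 296 and 311 with water, given R5020. In T47D-Y it had 1094, 1153 and 1182 with IFN, against 358, 381 and 378 with water, given EtOH, and 1179, 1232 and 1091 with IFN, against 419, 371 and 357 with water, given R5020. Its IFN levels were lowest in T47D-co given R5020, where the water level was not. PLSCR1 changed with IFN, in log2, by 1.35 ± 0.07 and 0.93 ± 0.07 in T47D-co given EtOH and R5020 (limma, adjusted p = 1.96e-12 and 4.95e-09) and 1.62 ± 0.07 and 1.61 ± 0.07 in T47D-Y (limma, adjusted p = 1.92e-14 and 1.87e-14).

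SP100, a constituent of PML nuclear bodies, was read in an entry merged with the names HMGB1P3 and RN7SL834P, at a locus that also holds AC010149.4 (hg19, chr2:231280656-231444721). In T47D-co it had 389.9, 344 and 428 scaled fragments with IFN, against 204, 201 and 185 with water, given EtOH, and 249, 272 and 257 with IFN, against 130.4, 114 and 142 with water, given R5020. In T47D-Y it had 685, 699 and 788 with IFN, against 272, 251 and 302 with water, given EtOH, and 724, 723 and 681 with IFN, against 313, 269 and 301 with water, given R5020. T47D-Y water libraries given EtOH thus reached the level of T47D-co libraries given R5020 and IFN, with overlap. The log2 fold changes were 0.97 ± 0.09 and 1.01 ± 0.09 in T47D-co given EtOH and R5020 (limma, adjusted p = 5.89e-08 and 3.56e-08) and 1.39 ± 0.09 and 1.27 ± 0.09 in T47D-Y (limma, adjusted p = 2.24e-11 and 1.58e-10).

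SP110, a nuclear body protein of the same family, had 765, 697 and 835 scaled fragments with IFN, against 410.3, 452 and 446 with water, in T47D-co given EtOH, and 1096, 1165 and 980.1 with IFN, against 693, 709 and 738 with water, given R5020. In T47D-Y it had 541, 640.4 and 674 with IFN, against 242, 238 and 266 with water, given EtOH, and 636, 704 and 666 with IFN, against 279.6, 239 and 233 with water, given R5020. By its own entry, its highest libraries were those of T47D-co given R5020 and IFN, without overlap with any other group. This held for no other gene of the 10, and not for the summed locus of SP110 given below. The log2 fold changes with IFN were 0.81 ± 0.08 and 0.59 ± 0.08 in T47D-co given EtOH and R5020 (limma, adjusted p = 4.64e-07 and 6.41e-05) and 1.31 ± 0.08 and 1.42 ± 0.08 in T47D-Y (limma, adjusted p = 2.06e-11 and 3.69e-12). Its locus (hg19, chr2:230990025-231268447) is shared with a merged entry of SP140, SP140L and AC009950.1. Values at shared loci are often fractions of a fragment, so fragments were divided between such entries.

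EPSTI1 (hg19, chr13:43460523-43566407), first described as a stromal interaction gene of breast epithelium, was low in T47D-Y with or without IFN. In T47D-co given EtOH it had 32.0, 25.4 and 54.5 scaled fragments with IFN, against 22.4, 18.6 and 16.1 with water, and given R5020 27.8, 19.5 and 30.6 with IFN, against 9.20, 6.72 and 7.80 with water. The T47D-co libraries did not overlap in either pair. In T47D-Y given EtOH it had 9.20, 7.21 and 3.96 scaled fragments with IFN, against 10.7, 6.45 and 9.57 with water, and given R5020 7.34, 10.1 and 5.58 with IFN, against 7.54, 6.33 and 3.36 with water. IFN and water libraries overlapped in both pairs. The log2 fold change in T47D-co was 1.58 ± 0.36 given R5020 (limma, adjusted p = 0.00539) and 0.88 ± 0.36 given EtOH (limma, adjusted p = 0.41), and in T47D-Y it was 0.38 ± 0.36 and -0.39 ± 0.36 (limma, adjusted p = 0.688 and 0.676). On the deposited scale, where the median of all entries moved by -0.47 with IFN in T47D-Y given EtOH, EPSTI1 was called lower there, at -0.81.

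ISG20 (hg19, chr15:89179383-89199714), a 3′ to 5′ exonuclease of single-stranded RNA named for its induction by interferon, lay in the same range everywhere. In T47D-co given EtOH it had 59.6, 70.8 and 48.6 scaled fragments with IFN, against 69.3, 71.4 and 51.8 with water, and given R5020 67.6, 106 and 72.8 with IFN, against 84.7, 70.6 and 84.5 with water. In T47D-Y given EtOH it had 51.8, 46.8 and 69.7 with IFN, against 47.1, 58.1 and 60.6 with water, and given R5020 75.8, 51.6 and 64.7 with IFN, against 55.0, 63.3 and 69.8 with water. IFN and water libraries overlapped in all 4 pairs. The log2 fold change was -0.11 ± 0.20 in T47D-co given EtOH (95% interval -0.51 to 0.30), 0.02 ± 0.20 given R5020 (-0.39 to 0.42), and 0.01 ± 0.20 and 0.02 ± 0.20 in T47D-Y given EtOH (-0.40 to 0.42) and R5020 (-0.39 to 0.43). These intervals leave out the changes of 0.81 or more that the 8 called genes showed in T47D-co given EtOH, while on the deposited scale ISG20 was called lower in T47D-Y, at -0.46 given EtOH and -0.46 given R5020, where the median of all entries moved by -0.47 and -0.48.

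**Figure D3:**
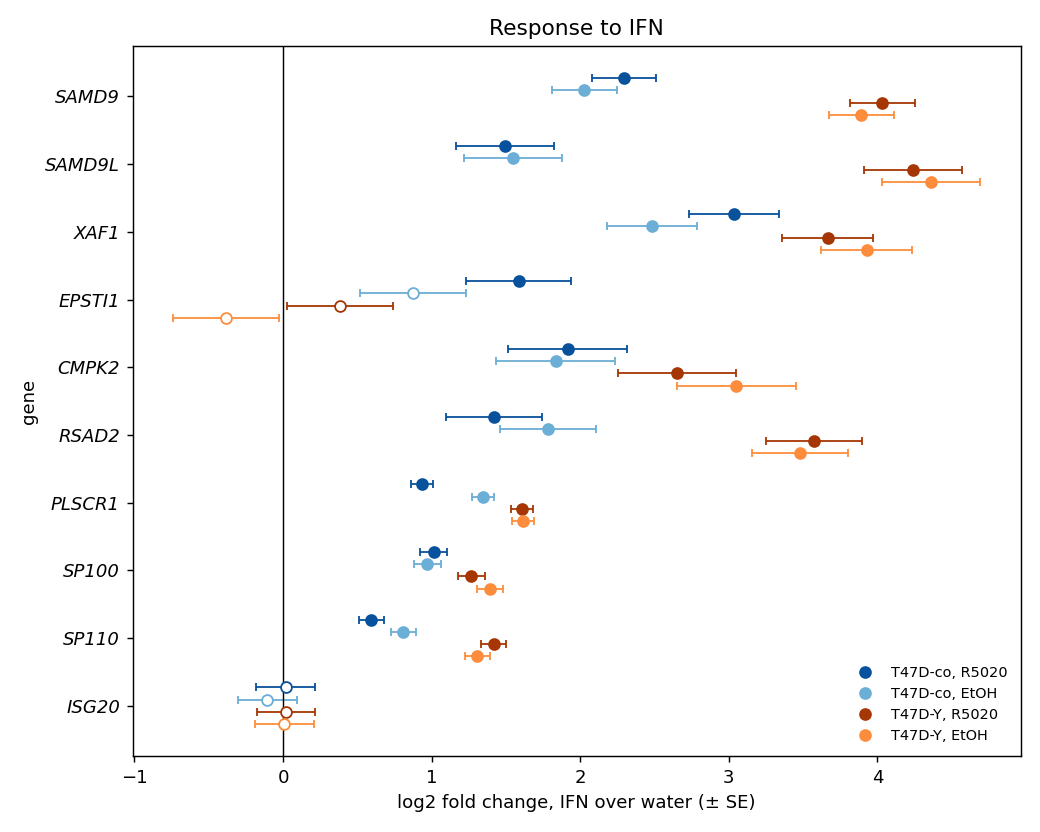
Log2 fold change of IFN over water (± SE, limma) for the 10 genes in T47D-co (blue) and T47D-Y (orange and brown), given R5020 (dark) or EtOH (light); filled points were called. SAMD9L stands at 1.5 and 1.55 in T47D-co and at 4.24 and 4.36 in T47D-Y, and ISG20 stands near 0 in all 4.

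The rise with IFN was smaller in T47D-co than in T47D-Y for several of these genes when the difference itself was tested. Among libraries given EtOH, 2 of the 10 were called, SAMD9 (-1.86 ± 0.31, T47D-co minus T47D-Y; limma, adjusted p = 0.00211) and SAMD9L (-2.82 ± 0.47; limma, adjusted p = 0.00211), where 0.377% of all tested entries were called in either direction. With EtOH and IFN the SAMD9L libraries of the 2 lines overlapped, and with EtOH and water those of T47D-co lay above those of T47D-Y. Among libraries given R5020 5 of the 10 were called, against 0.873% of all entries: SAMD9 (-1.74 ± 0.31), SAMD9L (-2.74 ± 0.47), RSAD2 (-2.15 ± 0.46), PLSCR1 (-0.68 ± 0.10) and SP110 (-0.82 ± 0.12). Their limma adjusted p values were 0.00235, 0.00157, 0.0152, 0.000541 and 0.000178. EPSTI1 differed the other way without a call, by 1.26 ± 0.50 given EtOH (limma, adjusted p = 0.484) and 1.20 ± 0.50 given R5020 (limma, adjusted p = 0.324). The remaining genes other than ISG20 lay between -1.69 and -0.27 given EtOH, and XAF1, CMPK2 and SP100 between -0.73 and -0.25 given R5020, all uncalled.

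The calls given R5020 are of unequal firmness. That of RSAD2 was lost without T47D-Y R5020 IFN replicate 2 (-2.06) or 3 (-2.11) or T47D-co R5020 IFN replicate 1 (-2.0), and with the 4 groups fitted alone (limma, adjusted p = 0.0647). Without the 4 libraries of low mitochondrial share RSAD2 (-2.33) and SAMD9L (-2.45) were not called (limma, adjusted p = 0.133 and 0.0728). With summed loci SP110 given R5020 was not called (-0.17), while CMPK2 with RSAD2 (-1.62; limma, adjusted p = 0.0439) and SP100 (-0.39; limma, adjusted p = 0.0405) were. Given EtOH, SP110 at -0.50 ± 0.12 (limma, adjusted p = 0.0672) became called without T47D-Y EtOH IFN replicate 1 (-0.59) or T47D-co EtOH IFN replicate 3 (-0.56). The part of the mitochondrial share in these results was not tested.

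R5020 lowered most of these genes in T47D-co, with or without IFN, and 0 of the 10 were called in T47D-Y. In T47D-co given water, 6 of the 10 fell and 1 rose, in a comparison in which 30% of all tested entries fell and 26.6% rose. In T47D-co given IFN, again 6 fell and 1 rose, against 30.6% and 27.5% of all entries. The median of the 10 genes was -0.83 given water and -0.60 given IFN, and that of all entries -0.036 and -0.046. These comparisons share libraries with the IFN comparisons above, so the values are set side by side only. The summed luminal markers were also lower with R5020 in T47D-co, at 64439 to 69980 against 96220.5 to 100593 with EtOH. The summed markers of other cell types lay at 625 to 709 with R5020, against 502 to 575 with EtOH, given water, and at 547 to 609 with R5020, against 494 to 561 with EtOH, given IFN. Among them KRT5 had a fitted log2 fold change of 7.45 ± 0.46 given water and 7.31 ± 0.46 given IFN (limma, adjusted p = 3.42e-13 and 4.79e-13). KRT5 was the 1 marker called higher of the 5 tested in each setting, and 2 were called lower in each. The part of these markers in the results was not tested.

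SAMD9L fell the most of the 10 in both settings, given water (-1.85 ± 0.33; limma, adjusted p = 3.07e-05) and given IFN (-1.90 ± 0.33; limma, adjusted p = 2.17e-05). SAMD9 moved by -1.34 ± 0.22 given water (limma, adjusted p = 8.11e-06) and -1.08 ± 0.22 given IFN (limma, adjusted p = 0.000137). XAF1 moved by -1.49 ± 0.30 given water (limma, adjusted p = 0.000166) and -0.94 ± 0.30 given IFN (limma, adjusted p = 0.0107), and the call given IFN was lost without EtOH IFN replicate 3 (-0.80). In each of these comparisons the R5020 libraries lay below all the EtOH libraries. SP100 did so too, at -0.61 ± 0.09 given water (limma, adjusted p = 1.85e-06) and -0.57 ± 0.09 given IFN (limma, adjusted p = 5.29e-06).

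RSAD2 fell in both settings, and the other genes fell in 1 or were uncalled. RSAD2 moved by -1.31 ± 0.32 given IFN (limma, adjusted p = 0.00114) and -0.95 ± 0.32 given water (limma, adjusted p = 0.0146), where its libraries overlapped and the call was lost without EtOH water replicate 2 (-0.81), R5020 water replicate 1 (-0.74) or R5020 water replicate 2 (-0.81), and with the 2 groups fitted alone (limma, adjusted p = 0.0712). EPSTI1 fell given water (-1.17 ± 0.36; limma, adjusted p = 0.00686) and was uncalled given IFN (-0.46 ± 0.36; limma, adjusted p = 0.282). PLSCR1 fell given IFN (-0.33 ± 0.07; limma, adjusted p = 0.000419) and was uncalled given water (0.08 ± 0.07; limma, adjusted p = 0.383). CMPK2 was uncalled in both (-0.70 ± 0.40 and -0.62 ± 0.40 given water and IFN; limma, adjusted p = 0.14 and 0.19), but the sum of the CMPK2 and RSAD2 locus was called in both, at -0.93 and -1.05. ISG20 was uncalled in both, at 0.32 ± 0.20 and 0.44 ± 0.20 (limma, adjusted p = 0.174 and 0.0567), and became called given IFN without EtOH IFN replicate 2 (0.57) or R5020 IFN replicate 1 (0.57), on the deposited scale (0.46), with quantile normalization (0.50) and with a minimum of 50 (limma, adjusted p = 0.0499).

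SP110 was the 1 gene of the 10 called higher with R5020, at 0.71 ± 0.08 given water (limma, adjusted p = 6.01e-08) and 0.50 ± 0.08 given IFN (limma, adjusted p = 1.42e-05), and this rise was not seen in the sum of its locus. The merged entry of SP140, SP140L and AC009950.1 had 355 ± 24.1 scaled fragments with R5020, against 656 ± 19.4 with EtOH, in T47D-co given water, and 402 ± 29 with R5020, against 719 ± 38.7 with EtOH, given IFN (SD, n = 3). That entry moved by -0.88 ± 0.06 and -0.84 ± 0.06 on the log2 scale (limma, adjusted p = 5.91e-13 and 1.61e-12), opposite to SP110. The summed locus moved by -0.030 given water and -0.0064 given IFN (limma, adjusted p = 0.65 and 0.927). Which gene of the locus changed cannot be told from these values.

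In T47D-Y R5020 changed 0 of the 10 genes by the limma test in either setting, against 0.218% of all entries called given water and 0.298% given IFN. At an unadjusted limma p under 0.05 there were also 0 of the 10 in either setting. Of the 20162 tested entries 849 reached that given water and 1203 given IFN. XAF1 came nearest given water, with an estimate of 0.62 ± 0.30 (unadjusted p = 0.0522, limma across all entries). The 95% interval of SAMD9L, a low gene, ran from -0.55 to 0.81 given water and from -0.68 to 0.68 given IFN, while that of SP100, read more deeply, ran from -0.09 to 0.28 and from -0.21 to 0.16. The SAMD9 libraries given R5020 and IFN (224 to 230.2) all lay above those given EtOH and IFN (159.9 to 208) without a call.

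Tested directly, the answer to R5020 differed between the lines for 5 of the 10 given water (44.6% of all entries called) and 7 given IFN (46%). Given water these were SAMD9 (-1.48 ± 0.31, T47D-co minus T47D-Y), SAMD9L (-1.97 ± 0.47), XAF1 (-2.11 ± 0.43), SP100 (-0.71 ± 0.13) and SP110 (0.70 ± 0.12). Given IFN they were SAMD9 (-1.35 ± 0.31), SAMD9L (-1.90 ± 0.47), XAF1 (-1.30 ± 0.43), RSAD2 (-1.40 ± 0.46), PLSCR1 (-0.36 ± 0.10), SP100 (-0.54 ± 0.13) and SP110 (0.38 ± 0.12). The SP110 differences turned to -0.052 and -0.13 when its locus was summed, and the XAF1 call given IFN was lost without T47D-Y EtOH IFN replicate 1 (-0.98). RSAD2 given water, at -0.94 ± 0.46, was called without T47D-Y EtOH water replicate 3 (-1.22) or T47D-co R5020 water replicate 3 (-1.28), and the summed RSAD2 and CMPK2 locus was called at -1.09.

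By limma 0 of the 10 were called for a different R5020 answer of T47D-co with IFN and with water (1.01% of all entries). At an unadjusted limma p under 0.05 there was 1 gene of the 10, against 3100 of the 20162 tested entries. That gene was PLSCR1, whose R5020 change was lower with IFN by -0.41 ± 0.10 (limma, adjusted p = 0.054). It was called without T47D-co EtOH water replicate 2 (-0.48) or EtOH IFN replicate 2 (-0.50). For SAMD9L the same difference was -0.05 ± 0.47, with a 95% interval from -1.01 to 0.91, and for XAF1 it was 0.55 ± 0.43 (-0.34 to 1.44). In T47D-Y 0 of the 10 were called by limma, and 0 at an unadjusted p under 0.05, against 0% of all entries called.

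**Figure D4:**
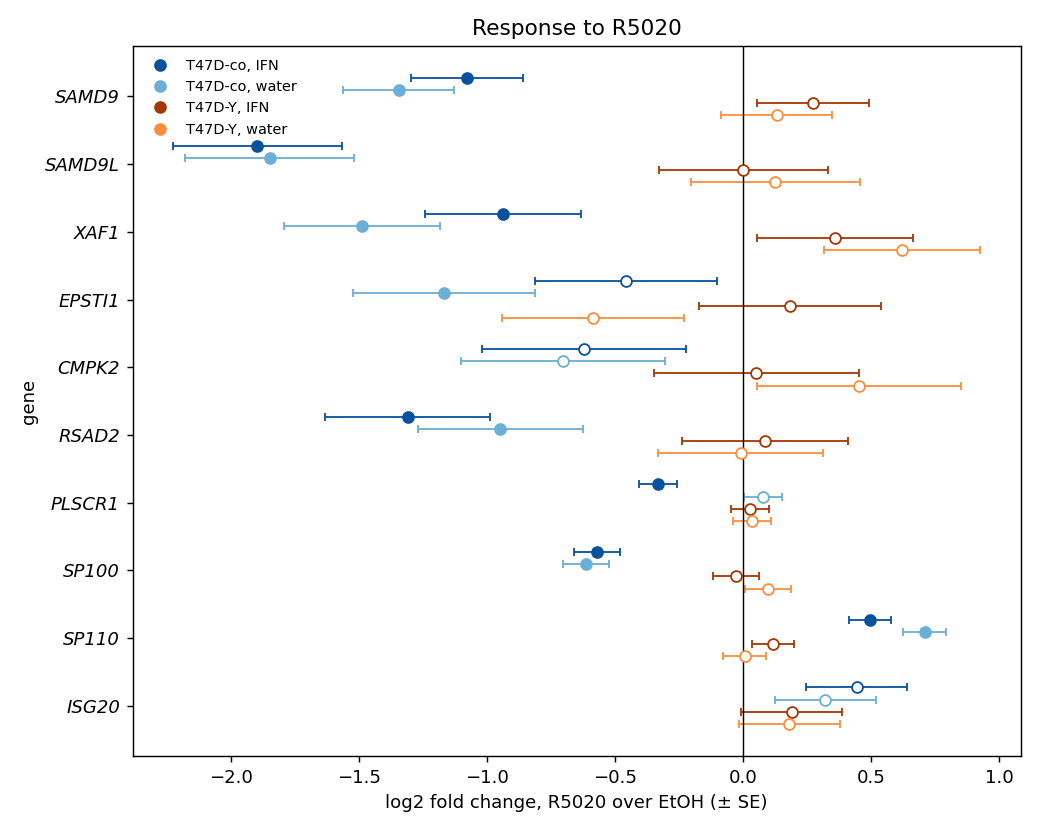
Log2 fold change of R5020 over EtOH (± SE, limma) for the 10 genes in T47D-co (blue) and T47D-Y (orange and brown), given IFN (dark) or water (light); filled points were called. SAMD9L stands at -1.90 and -1.85 in T47D-co and at 0.00099 and 0.13 in T47D-Y, and SP110 is the 1 gene called to the right of 0, a call that is lost when its locus is summed.

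Between the lines, the order of levels depended on the treatment. Given EtOH and water, 5 of the 10 genes were higher and 2 lower in T47D-co than in T47D-Y (29.7% and 33.4% of all entries). SAMD9L (2.75 ± 0.33), SAMD9 (2.63 ± 0.22), XAF1 (2.17 ± 0.30), EPSTI1 (1.03 ± 0.36) and SP110 (0.81 ± 0.08) were higher, with limma adjusted p values of 6.24e-08, 7.33e-11, 8.35e-07, 0.0142 and 4.79e-09. SP100 (-0.48 ± 0.09) and PLSCR1 (-0.42 ± 0.07) were lower, at limma adjusted p values of 4.47e-05 and 2.55e-05. The summed locus of SP110 did not differ by the test (0.018), and the EPSTI1 call was lost without T47D-Y EtOH water replicate 2 (0.83) or T47D-co EtOH water replicate 1 (0.91).

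Given R5020 and IFN, 2 of the 10 were higher and 6 lower in T47D-co (32.5% and 35.8% of all entries). RSAD2 stood at -2.93 ± 0.32 (limma, adjusted p = 1.2e-08), SAMD9L at -1.96 ± 0.33 (limma, adjusted p = 9.8e-06), CMPK2 at -1.75 ± 0.40 (limma, adjusted p = 0.000395), SP100 at -1.45 ± 0.09 (limma, adjusted p = 1.67e-13) and PLSCR1 at -1.05 ± 0.07 (limma, adjusted p = 2.52e-12). SAMD9 was lower by a small margin (-0.59 ± 0.22; limma, adjusted p = 0.02), a call lost without T47D-co R5020 IFN replicate 3 (-0.45). XAF1 was uncalled (-0.57 ± 0.30; limma, adjusted p = 0.101) though its libraries did not overlap, and was called with the 2 groups fitted alone (limma, adjusted p = 0.0136). EPSTI1 was higher (1.65 ± 0.36; limma, adjusted p = 0.000219), and so was SP110 (0.69 ± 0.08; limma, adjusted p = 6.35e-08), whose summed locus was lower (-0.21; limma, adjusted p = 0.000941). SAMD9 and SAMD9L were thus called higher in T47D-co among libraries given EtOH and water and lower among libraries given both agents.

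With EtOH and IFN, 4 of the 10 were higher and 4 lower in T47D-co (29.6% and 33% of all entries). EPSTI1 (2.29 ± 0.36), SAMD9 (0.77 ± 0.22), XAF1 (0.73 ± 0.30) and SP110 (0.31 ± 0.08; summed locus -0.081) were higher. RSAD2 (-1.53 ± 0.32), CMPK2 (-1.08 ± 0.40), SP100 (-0.90 ± 0.09) and PLSCR1 (-0.69 ± 0.07) were lower. The XAF1 call was lost without T47D-Y EtOH IFN replicate 1 (0.41) or T47D-co EtOH IFN replicate 1 (0.71) or 3 (0.59), and that of CMPK2 without T47D-Y EtOH IFN replicate 2 (-0.97) or 3 (-1.03) or T47D-co EtOH IFN replicate 1 (-0.88). With R5020 and water, 3 were higher and 4 lower (32% and 36.6% of all entries). SP110 (1.51 ± 0.08; summed locus -0.034) and SAMD9 (1.15 ± 0.22) were higher and SP100 (-1.19 ± 0.09) and PLSCR1 (-0.37 ± 0.07) lower.

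The calls of SAMD9L (0.78 ± 0.33), CMPK2 (-1.02 ± 0.40) and RSAD2 (-0.77 ± 0.32) with R5020 and water were lost without single libraries. For SAMD9L these were T47D-Y R5020 water replicate 1 (0.52) and T47D-co R5020 water replicates 1 (0.64) and 3 (0.52). For CMPK2 they were T47D-Y R5020 water replicate 3 (-0.82) and T47D-co R5020 water replicate 2 (-0.56). For RSAD2 they were T47D-Y R5020 water replicates 1 (-0.77) and 2 (-0.69) and T47D-co R5020 water replicates 1 (-0.56) and 2 (-0.64). With quantile normalization CMPK2 (-0.31) and RSAD2 (-0.24) were not called in this comparison, and XAF1 (0.79), EPSTI1 (1.07) and ISG20 (0.60) were called higher, against 0.06, 0.45 and 0.35 without it.

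**Figure D5:**
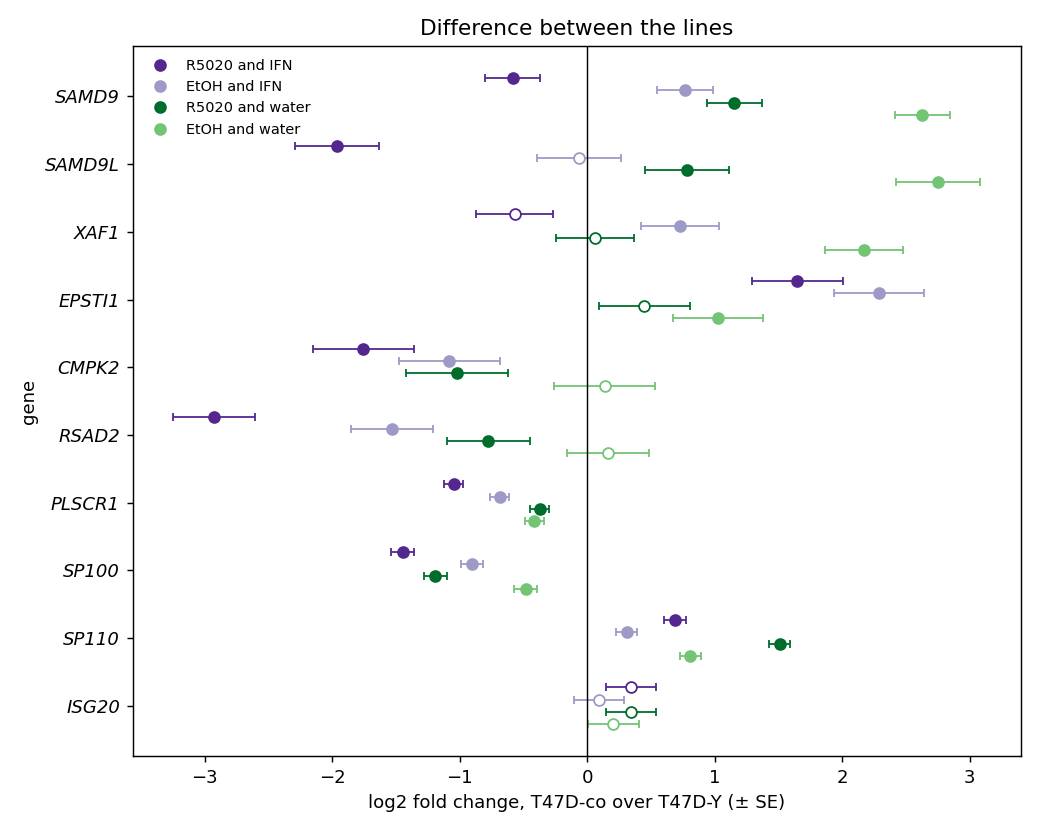
Log2 fold change of T47D-co over T47D-Y (± SE, limma) for the 10 genes under R5020 and IFN, EtOH and IFN (purple), R5020 and water, and EtOH and water (green); filled points were called. SAMD9L runs from 2.75 with EtOH and water to -1.96 with R5020 and IFN, and EPSTI1 lies right of 0 throughout.

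The order of the group means shows the same for single genes. SAMD9 was highest in T47D-co given EtOH and IFN (mean 321) and lowest in T47D-Y given EtOH and water (12.0), a ratio of 26.7. Its T47D-Y groups given IFN with and without R5020 came next and were followed, with overlap, by T47D-co given R5020 and IFN (152). For SAMD9L the 3 highest groups, at means of 67.0, 66.7 and 66.4, overlapped. T47D-co given EtOH and water (21.1) came before T47D-co given R5020 and IFN (16.4). Their libraries did not overlap, but the nearest stood at 19.3 and 18.4, and no test compared these groups. XAF1 spanned a ratio of 34.7, with all neighbours among its 4 IFN groups overlapping. ISG20 spanned a ratio of 1.49, and every neighbouring pair of its 8 groups overlapped.

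Other interferon genes were read from lists chosen with earlier results of these data known. Of 54 further symbols of antiviral interferon-stimulated genes 48 were tested, and the untested SHFL is another symbol of the tested C19orf66. With IFN 37 rose in T47D-co given R5020, 41 in T47D-co given EtOH, 44 in T47D-Y given R5020 and 45 in T47D-Y given EtOH, with 0 lower in each. In the same order 7.56%, 0.57%, 3.08% and 2.51% of all entries rose. The medians of the 48 were 0.93, 1.23, 2.16 and 2.10, in that order. Among them IFI6, an interferon-induced mitochondrial protein, moved by 3.49 ± 0.09 in T47D-co given EtOH. With R5020 in T47D-co 32 of the 48 fell and 10 rose given water (30% and 26.6% of all entries), and 37 fell and 5 rose given IFN (30.6% and 27.5%). Among the rises were LAMP3, a lysosomal membrane protein (3.02 ± 0.08 given water), and HERC5, the ISG15 ligase (2.27 ± 0.12 given water, in an entry merged with AC083829.1). In T47D-Y 0 of the 48 were called with R5020 by limma in either setting, and 0 had an unadjusted p under 0.05. The difference of the IFN response, T47D-co minus T47D-Y, was called lower for 24 of the 48 given EtOH and 38 given R5020. Of all entries 0.377% and 0.873% were called there in either direction.

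Of 14 genes of the interferon receptor, ISGF3 and their regulators 12 were tested, of which USP18 is also in the antiviral list, and IFN raised 4 in T47D-co given EtOH, 5 in T47D-co given R5020 and 4 in T47D-Y in either setting. Over all entries 0.57% rose with IFN in T47D-co given EtOH and 7.56% given R5020. In T47D-Y 2.51% rose given EtOH and 3.08% given R5020. With R5020 in T47D-co 4 of the 12 rose and 6 fell given water, where 26.6% and 30% of all entries did. Given IFN 2 rose and 8 fell, against 27.5% and 30.6% of all entries. IRF7, a transcription factor that carries the response on, rose by 0.73 ± 0.10 in T47D-co given EtOH and 1.51 ± 0.10 in T47D-Y given EtOH. With R5020 in T47D-co USP18, which shuts the receptor off, fell given water (-1.09 ± 0.17) and given IFN (-1.48 ± 0.17). Of 11 PML nuclear body partners of SP100 7 were tested, and IFN raised 1 in T47D-co given EtOH, 3 in T47D-co given R5020 and 2 in T47D-Y in either setting. These IFN counts stand against the same shares of all entries. With R5020 in T47D-co 3 of the 7 rose and 2 fell given water, and 4 rose and 1 fell given IFN, where more than 1 in 2 of all entries were called. PML itself, the organiser of these bodies, rose with IFN given EtOH in T47D-co (0.40 ± 0.07) and in T47D-Y (1.03 ± 0.07). Given R5020 PML was uncalled with IFN in T47D-co (0.13 ± 0.07; limma, adjusted p = 0.228) and rose in T47D-Y (0.92 ± 0.07). PML moved with R5020 in T47D-co by -0.40 ± 0.07 given water and -0.67 ± 0.07 given IFN.

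The entries most like 3 of the genes were sought by Pearson correlation of log2 levels over the 8 group means, among 12434 candidates with a mean of at least 50 scaled fragments in 1 or more groups, as a description of 8 points that share libraries. SAMD9L was most like IRF7 (r = 0.986), NF2 (r = 0.979) and DDX58, the RNA sensor RIG-I (r = 0.978). XAF1 was most like DDX60L (r = 0.988), IFIT1 (r = 0.986) and DDX60 (r = 0.983). EPSTI1 was most like CCDC12 (r = 0.967), RP11-256P1.1 (r = 0.959) and CEP44 (r = 0.956). These are not in the list of antiviral genes, and neither are IRF7 and NF2. The group means of EPSTI1 were low, at 5.74 to 37.3. The highest of 12434 correlations over 8 points are also high by selection.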

How the data were processed

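The authors deposited 1 table of 25541 entries by 24 libraries, with no unit named per the file headers. Per the submitters' processing notes TopHat2 2.0.12, Cufflinks 2.2.1 and the build GRCh37 (hg19) were used. The deposited values were treated as a signal. Among entries alone at their locus 98.2 to 99.0% of values were whole multiples of 1 step per library (tolerance 0.05 of a step). Over all entries 58.1 to 60.0% were. The values were therefore read as estimated fragments divided by a size factor. The geometric mean of the steps lay between 0.9961 and 0.9987 in the 4 blocks of line and IFN state. The factors were therefore read as set separately in these blocks. Since shared loci hold fractions, no count test was run.

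The step was divided out, and each library was then scaled to the others by the median of ratios (14202 entries averaging 50 fragments or more). Left out were 25 entries with a repeated name and 1 line without a gene. An entry had to reach 10 scaled fragments in 3 or more libraries to enter the test, which was run on log2(value + 1) with limma 3.58.1 in R 4.3.3, in 1 fit of 8 group means with a variance trend, 18 comparisons, and Benjamini-Hochberg adjustment over all 20162 entries. Parsing and sequence searches used Python 3.11.15, and the fit was tested on simulated data.

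The 10 genes, the lists and the tests were chosen with earlier results of these data known. All 10 genes are named in every comparison; of each list at most 3 called genes with the largest change per comparison are named, and NF2, CCDC12 and the like come from the ranking of correlations. Alternatives were the deposited scale, scaling by total fragments, quantile normalization, other pseudocounts and filters, voom weights, fits of the compared groups only, a replicate block, summed loci, and leaving out each library or the 4 of low mitochondrial share. Protein sequences were not used here.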

Additional observations from a re-analysis of the deposited data

Results flagged for a closer look

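The results listed here were marked because the 2 lines differed in their answer to the same agent by a limma test of the difference (T47D-co minus T47D-Y, log2). The answer to IFN among libraries given EtOH differed for SAMD9 (-1.86) and SAMD9L (-2.82), with 0.377% of all entries called. Among libraries given R5020 it differed for SAMD9 (-1.74), SAMD9L (-2.74), RSAD2 (-2.15), PLSCR1 (-0.68) and SP110 (-0.82), with 0.873% of all entries called.

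The answer to R5020 among libraries given water differed for SAMD9 (-1.48), SAMD9L (-1.97), XAF1 (-2.11), SP100 (-0.71) and SP110 (0.70), with 44.6% of all entries called, close to the share among the 10. Among libraries given IFN it differed for SAMD9 (-1.35), SAMD9L (-1.90), XAF1 (-1.30), RSAD2 (-1.40), PLSCR1 (-0.36), SP100 (-0.54) and SP110 (0.38), with 46% of all entries called. SAMD9 and SAMD9L were marked in all 4. The values of SP110 lost their call or reversed when its locus was summed.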

How the results depend on the processing

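Of 96 called values of single genes, 1830 refits kept the sign in 1823 and the call in 1751; leaving out 1 library kept the call in 656 of 690. Results that reversed, with a call in at least 1 of the 2 settings, were those of ISG20 with IFN in T47D-Y on the deposited scale (-0.46 given EtOH, -0.46 given R5020) and of SP110 with its locus summed: R5020 in T47D-co (-0.030 given water, -0.0064 given IFN), T47D-co against T47D-Y (-0.081 with EtOH and IFN, -0.034 with R5020 and water, -0.21 with R5020 and IFN) and the line difference of the R5020 response (-0.052 given water, -0.13 given IFN). The deposited scale shifts the median of all entries, and a summed locus adds other genes. Causes of the reversals were not tested.

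Among counts of called genes, T47D-co against T47D-Y with R5020 and water gave 4 in place of 7 with a pseudocount of 5, with voom and with the 2 groups alone. The line difference of the IFN response gave 5 in place of 2 given EtOH on the deposited scale, and 3 in place of 5 given R5020 without the 4 libraries of low mitochondrial share. The R5020 by IFN difference in T47D-co gave 1 in place of 0 with a minimum of 50 and without those 4 libraries, and 0 to 1 when single libraries were left out. A minimum of 50 left 144 of 180 values. With the replicate block all 180 values kept their call or lack of one, and the count with IFN in T47D-co given EtOH was again 8; deviations from the group means correlated at -0.084 to 0.068 over 84 pairs of same-numbered libraries, 0 above 0.1, and 5 of 24 libraries correlated best with their own number. Quantile normalization also ended the calls of RSAD2 with R5020 in T47D-co given water (-0.73) and, between the lines, of CMPK2 with EtOH and IFN (-0.86) and SAMD9 with R5020 and IFN (-0.43). It gave calls of ISG20 between the lines with R5020 and IFN (0.56) and of SP110 in the line difference of the IFN response given EtOH (-0.58). Counting error limits the fold changes where libraries hold few fragments, as for SAMD9L in T47D-Y with water (7 fragments in sum given EtOH, 12 given R5020).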

Other observations

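Relatives and partners of the 10 genes, 13 of 16 tested, included genes called with R5020 in T47D-co: 8 rose and 2 fell given water, where 26.6% of all entries rose and 30% fell, and 9 rose and 2 fell given IFN, where 27.5% rose and 30.6% fell. AEN, a nuclease related to ISG20, moved by 2.06 ± 0.08 given water (limma, adjusted p = 6.37e-18) and 1.99 ± 0.08 given IFN (limma, adjusted p = 1.27e-17), where ISG20 was uncalled. CTPS1, which makes the CTP that RSAD2 uses, moved by 0.98 ± 0.05 given water and 0.97 ± 0.05 given IFN (limma, adjusted p = 3.71e-15 and 4.55e-15). With IFN 0 of the 13 were called by limma in T47D-co given EtOH, with 0 at an unadjusted p under 0.05. In T47D-co given R5020 0 were called, with 2 at an unadjusted p under 0.05. In T47D-Y given EtOH 1 was called, the apoptosis inhibitor BIRC2 at 0.17 ± 0.05, with 2 at an unadjusted p under 0.05. In T47D-Y given R5020 0 were called, with 2 at an unadjusted p under 0.05. Of the 20162 tested entries 202, 2268, 896 and 960 were called with IFN, in that order of the 4 settings. An unadjusted p under 0.05 was reached by 1773, 5257, 3422 and 3279. With 13 genes, counts this low are not read as a result. No test compared the 2 agents.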
